A study of Rattus norvegicus with 8 samples.

Results

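The family of miR-103 and miR-107 was examined in small RNA libraries from rat kidney. Its members were taken by name as all mature miRNAs listed as rno-miR-103 or rno-miR-107, both arms included, and 5 of the 620 miRNAs in the deposited count table met this rule. They were rno-miR-103, rno-miR-107, rno-miR-107*, rno-miR-103-2* and rno-miR-103-1*. An asterisk marks the arm of a hairpin that is usually the less abundant. The 8 rats were male Big Blue transgenic rats of the Fisher 344 strain, which carry a reporter transgene for mutation assays in every tissue, controls included. The AA group (n = 4) was gavaged with the sodium salt of aristolochic acid, a nephrotoxic carcinogen of Aristolochia plants, 5 times a week from an age of 6 weeks, each time with 10.0 mg per kg in a volume of 4 ml per kg. The control group (n = 4) received 0.9% sodium chloride. The comparison asks how kidney miRNAs differ under a dosing schedule known to give kidney tumors. The study's methods give 12 weeks of treatment for all rats. By the sample labels, treatment ran for 12, 13, 14 and 15 weeks in rats 1 to 4 of each group, and every rat was aged 18 weeks. A start at 6 weeks and an age of 18 weeks allow 12 weeks of treatment, so the labeled lengths of 13 to 15 weeks conflict with these ages. Each library was made from a piece of whole kidney, so that fewer cells of a type and less RNA per cell cannot be told apart.

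miRNAs are cut from a hairpin transcript, and each hairpin can give a mature strand from either of its arms. The strand that is loaded into an Argonaute protein pairs with target mRNAs mainly through its seed, bases 2 to 8, and lowers their output. miR-103 and miR-107 lie within genes for pantothenate kinases, the enzymes of the first step of coenzyme A synthesis, and they are known for lowering insulin sensitivity through caveolin-1 and for repressing Dicer, the enzyme that cuts miRNA hairpins.

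The mature sequences of the 2 main arms are shown because they differ by a single base. They were taken from RefSeq for the rat assembly GRCr8, and capitals mark the seed.
rno-miR-103: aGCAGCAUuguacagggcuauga
rno-miR-107: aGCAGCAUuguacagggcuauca
Both have 23 bases and the same seed, and no other of the 693 mature miRNA names in the RefSeq table has this seed. Counted from the 5′ end, the difference is G22C (miR-103 first). A read that ends at or before base 21 is therefore the same for both miRNAs. The rule by which such reads were assigned is not given in the sources used here, nor is the number of mismatches allowed. The split of counts between miR-103 and miR-107 is uncertain at least to that extent.

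The 3 hairpins are shown because the less abundant arms, unlike the mature miR-103, differ between them. Capitals mark the mature miR-103 or miR-107.
Mir103a1: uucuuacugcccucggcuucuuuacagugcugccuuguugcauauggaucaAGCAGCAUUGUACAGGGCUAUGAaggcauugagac
Mir103a2: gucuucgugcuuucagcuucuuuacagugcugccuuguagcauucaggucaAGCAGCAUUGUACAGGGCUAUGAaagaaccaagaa
Mir107: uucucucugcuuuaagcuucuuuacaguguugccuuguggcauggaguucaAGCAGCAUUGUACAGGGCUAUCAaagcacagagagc
In GRCr8, Mir103a1 lies at chr10:20748474-20748559 on the plus strand within the span of Pank3, Mir103a2 at chr3:138963227-138963312 on the plus strand within Pank2, and Mir107 at chr1:241750418-241750504 on the minus strand within Pank1. The deposited table names no genome build, and its miRNAs were matched to RefSeq by name. The whole mature miR-103 occurs in both Mir103a1 and Mir103a2, so that its counts cannot be divided between them. RefSeq lists the other arm of Mir103a2, rno-miR-103-2-5p, which is the arm counted as rno-miR-103-2*, with 17 bases and the seed in capitals.
rno-miR-103-2*: aGCUUCUUuacagugcu
Counted along these 17 bases, the same stretch of Mir103a1 differs by A1G and that of Mir107 by C16U (Mir103a2 first). A read of this stretch that starts after base 1 is therefore the same for Mir103a1 and Mir103a2. The split of counts between rno-miR-103-1* and rno-miR-103-2* is uncertain to that extent. The arms listed as rno-miR-103-1* and rno-miR-107* are given by name only.

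The libraries held 13412373 to 15616670 miRNA counts each. Size factors, as medians of ratios, were 0.818 to 1.05 in control rats and 0.891 to 1.28 in AA rats, and counts divided by them are called normalized counts here. A miRNA was called differentially expressed where the quasi-likelihood F test of edgeR, with Benjamini-Hochberg adjustment over all 620, gave an adjusted p under 0.05 and the mean normalized counts differed by more than 1.5-fold. SE stands for the standard error of a log2 fold change. By this rule 56 miRNAs were called, 36 of them higher in the AA rats (5.81% of those tested) and 20 lower (3.23%). The split between higher and lower depends on the scaling. Scaled to total counts, 58 were higher and 11 lower, and with total counts that leave out miR-21, 97 were higher and 10 lower. Over all miRNAs, the median log2 fold change was 0.05 with the size factors, 0.31 with total counts and 0.49 with total counts that leave out miR-21. Each library came from its own rat, and no library repeated another.

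rno-miR-103 was among the most abundant miRNAs in these libraries and was 2.32-fold lower after AA treatment. The control rats numbered 1 to 4 had 189313, 207288, 246147 and 346608 normalized counts of rno-miR-103, and the AA rats had 144723, 97758, 98198 and 85878. Every AA rat was below every control rat, and control rat 4 stood highest. The means were 247339 ± 70301 in control rats and 106639 ± 26023 in the AA rats (SD, n = 4 each). The log2 fold change of rno-miR-103 was -1.21 (SE 0.23, edgeR adjusted p = 0.00362). By mean normalized count it ranked 11 of 620 in control rats and 15 in the AA rats, and its share of all miRNA counts was 1.55% ± 0.398 against 0.795% ± 0.127 (SD, n = 4 each). Among the 20 miRNAs called lower, it was number 2 in order of level and number 10 in order of fold.

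**Figure D1:**
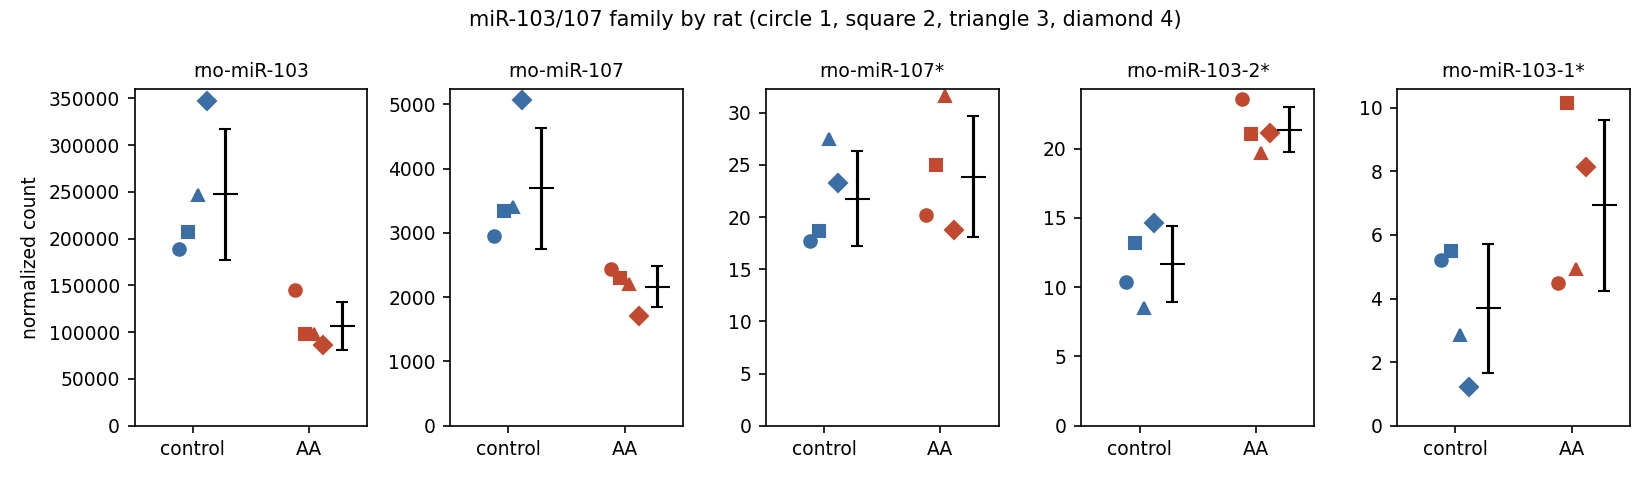
Normalized counts (y axes, each from 0) of the 5 family members in control (blue) and AA-treated (red) rats, with a point for each rat and a bar for the mean ± SD of 4 rats. All AA rats are below all control rats for rno-miR-103 (85878 to 144723 against 189313 to 346608) and rno-miR-107, and above them for rno-miR-103-2* (19.7 to 23.6 against 8.53 to 14.7).

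rno-miR-103 was called lower without each single rat and under each scaling tried. Without control rat 4, whose value was highest, its log2 fold change was -1.02 (edgeR adjusted p = 0.00891), and without both rats numbered 4 it was -0.90 (edgeR adjusted p = 0.0165). Scaled to total counts it was -0.97 (edgeR adjusted p = 0.00663), and with total counts that leave out miR-21 it was -0.79 (edgeR adjusted p = 0.0163). Measured from the median of all miRNAs, which by construction shifts with the scaling much as each miRNA does, the change was -1.26 with the size factors, -1.28 with total counts and -1.28 with total counts that leave out miR-21. It was called lower under each of the 20 other settings tried, in 1 of which it was fitted as a sum with miR-107.

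rno-miR-107 had far lower counts than its near-identical partner and fell 1.71-fold. The control rats 1 to 4 had 2948, 3345, 3400 and 5069 normalized counts of rno-miR-107, against 2436, 2294, 2208 and 1710 in the AA rats. The groups did not overlap, and control rat 4 was again the highest. The means were 3691 ± 941 and 2162 ± 316 (SD, n = 4 each), and the log2 fold change was -0.77 (SE 0.22, edgeR adjusted p = 0.0386). It ranked 90 of 620 in control rats and 106 in the AA rats. Of the 5 family members, 2 were thus called lower, where 3.23% of all miRNAs were, and none was called higher, where 5.81% were. In those 2 members every AA rat was below every control rat, as was the case for 6.61% of all miRNAs.

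The call of rno-miR-107 was close to the threshold and was lost under 11 of the 19 other settings in which it was fitted on its own, with the same direction in all 19. Its adjusted p from edgeR was 0.0757 without control rat 2, 0.0708 without control rat 3, 0.0914 without control rat 4, 0.0629 without AA rat 3 and 0.0725 without AA rat 4. With the rat number as a replicate block it was 0.0505, at a log2 fold change of -0.75. Scaled to total counts its log2 fold change was -0.51 (edgeR adjusted p = 0.162), and with total counts that leave out miR-21 it was -0.34 (edgeR adjusted p = 0.309). From the median of all miRNAs it differed by -0.82 with the size factors and by -0.82 and -0.83 with these 2 scalings. This likeness follows by construction, as the median shifts with the scaling, and it does not restore the call. Where miR-103 and miR-107 were summed, the result does not depend on how their shared reads were divided, if each was counted once. The sum was 251030 ± 71222 normalized counts for the control group and 108802 ± 26258 for the AA group (SD, n = 4 each), 2.31-fold lower. It was nearly all miR-103, as miR-107 made up 1.48% of the family's counts in controls and 2.02% in the AA rats. The sum therefore does not show whether miR-107 fell.

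**Figure D2:**
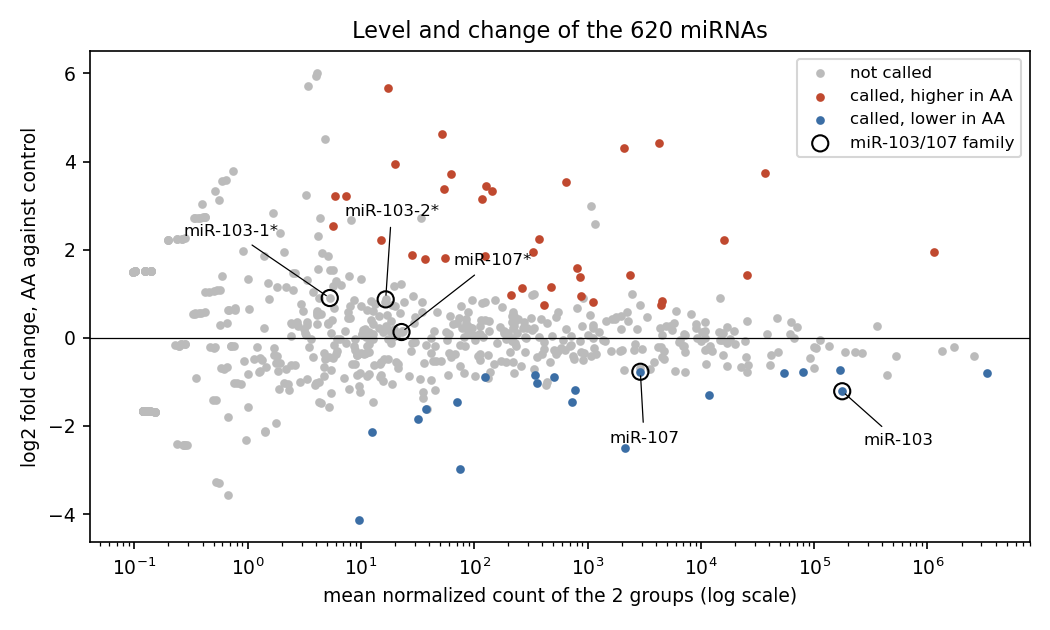
Log2 fold change (AA against control, edgeR) against the mean normalized count of the 2 groups (log axis) for the 620 miRNAs, with the family circled. miR-103 (log2 fold change -1.21) lies at the right with the most abundant miRNAs, miR-107 (-0.77) in the upper middle range of level, and the 3 less abundant arms at low counts and above 0.

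**Figure D3:**
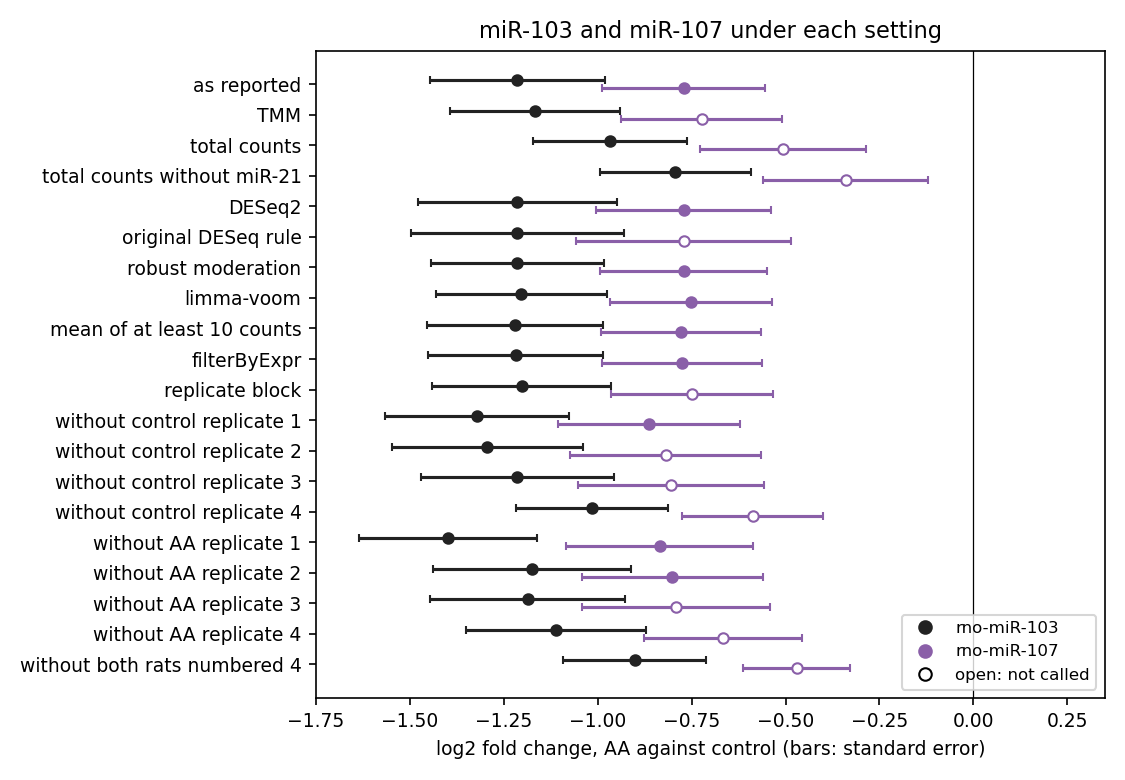
Log2 fold changes with standard errors (x axis) of rno-miR-103 (black) and rno-miR-107 (purple) as reported and under 19 other settings in which both were fitted separately, with filled points for called differences. All points are below 0, those of rno-miR-103 are all filled, and 11 points of rno-miR-107 are open.

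The ratio of the 2 near-identical miRNAs within a library does not depend on the scaling, and it was lower in the AA rats. There were 64.2, 62.0, 72.4 and 68.4 counts of miR-103 for each count of miR-107 in the control rats 1 to 4, and 59.4, 42.6, 44.5 and 50.2 in the AA rats. No AA rat reached the lowest control rat, although AA rat 1 came near it. The mean log2 ratio was 6.06 ± 0.0993 in control rats and 5.61 ± 0.215 in the AA rats (SD, n = 4 each), a difference of -0.45 (exact permutation test, two-sided, p = 0.0286, adjusted p = 0.0381 over 4 ratios). This p of 0.0286 is the smallest that 4 rats against 4 allow. miR-107 accordingly made up 1.48% ± 0.0997 of the family's counts in controls and 2.02% ± 0.285 in the AA rats. With a rat left out, the difference ranged from -0.55 to -0.39, and without any single control rat the exact p was 0.0571. Whether their shared reads were divided in the same way in all libraries was not tested.

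The less abundant arms were present at 1 to 32 counts per library, and none of them was called in either direction. rno-miR-103-2*, the other arm of Mir103a2, had 10, 12, 9 and 12 counts in controls and 21, 27, 20 and 26 in the AA rats. Every AA rat was above every control rat, as was the case for 9.68% of all miRNAs. Its normalized counts were 11.7 ± 2.75 and 21.4 ± 1.60 (SD, n = 4 each), and the log2 fold change was 0.87 (SE 0.34, edgeR adjusted p = 0.139). It was not called, but it was when scaled to total counts, at a log2 fold change of 1.14 (edgeR adjusted p = 0.0444), and after the filterByExpr filter on low counts (edgeR adjusted p = 0.0494). Relative to the median of all miRNAs, the change was 0.83 with the size factors and 0.82 with total counts. This likeness again follows by construction, as the median shifts with the scaling.

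rno-miR-103-1*, the other arm of Mir103a1, had 5, 5, 3 and 1 counts in controls and 4, 13, 5 and 10 in the AA rats. The groups overlapped, and the log2 fold change of 0.90 had a standard error of 0.53 (edgeR adjusted p = 0.323). rno-miR-107* had 17, 17, 29 and 19 counts in controls and 18, 32, 32 and 23 in the AA rats, again with overlap. Its log2 fold change was 0.13 (SE 0.33, edgeR adjusted p = 0.820), and without AA rat 3 it was -0.04.

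The 2 arms of a hairpin come from the same transcript, and their ratio was compared within each library. For Mir107 there were 167, 179, 124 and 218 counts of miR-107 for each count of miR-107* in the control rats, and 121, 91.9, 69.97 and 91.3 in the AA rats. The lowest control rat and the highest AA rat were nearly level, and the groups did not overlap. The mean log2 ratio was 7.36 ± 0.334 in control rats and 6.49 ± 0.314 in the AA rats (SD, n = 4 each), lower by 1.83-fold in the AA rats (exact permutation test, two-sided, p = 0.0286, adjusted p = 0.0381 over 4 ratios). With a rat left out, the difference in log2 ratio ranged from -1.02 to -0.74, and the exact p was 0.0571 in each case except without control rat 3.

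For miR-103 the comparison used the summed counts of miR-103-1* and miR-103-2*, since its main arm cannot be divided between the 2 hairpins. There were 12142, 11102, 21636 and 21821 counts of miR-103 for each count of these arms in the control rats, and 5159, 3132, 3983 and 2929 in the AA rats. All AA rats were far below all control rats. The mean log2 ratio was 13.9 ± 0.518 and 11.8 ± 0.366 (SD, n = 4 each), 4.21-fold lower in the AA rats (exact permutation test, two-sided, p = 0.0286, adjusted p = 0.0381 over 4 ratios). This ratio was chosen after seeing the data, with miR-103 already known to be lower, and miR-103-2* higher, in every AA rat. Its separation and its p largely follow from that choice and are not a separate result. The ratio of miR-103-2* to miR-103-1* had mean log2 values of 1.65 ± 0.959 and 1.63 ± 0.552 (SD, n = 4 each) with overlap of the groups (p = 0.971 in the two-sided exact permutation test). The other 3 ratios share members and are not independent of each other.

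The same ratio of arms was computed for the 95 miRNAs listed with an asterisk partner and a mean of at least 10 counts for each arm. Their median difference between the groups was 0.0037 on the log2 scale, with quartiles at -0.28 and 0.29. The AA rats were all below the control rats in 9 of the 95 (9.47%), and above them in 3. The difference of -0.87 for miR-107 was number 4 in order from the most negative. A sum of 2 partner arms, as for miR-103, was not among these pairs.

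**Figure D4:**
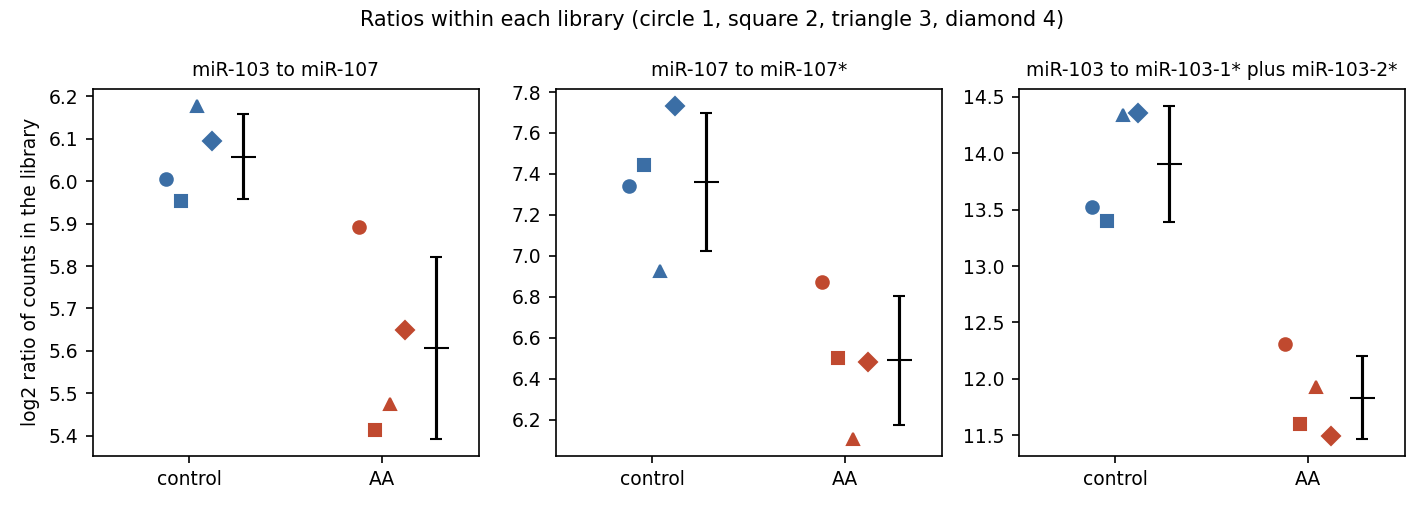
Log2 ratios of counts within a library (y axes, not starting at 0) for control (blue) and AA-treated (red) rats, with a point for each rat and a bar for the mean ± SD of 4 rats. In all 3 ratios the AA rats are below the control rats, by 0.45 for miR-103 to miR-107, 0.87 for miR-107 to miR-107* and 2.07 for miR-103 to its partner arms.

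Over the 8 rats, the normalized counts of rno-miR-103 and rno-miR-107 on a log2 scale had a Pearson correlation of 0.965, and 0.887 after the group means were subtracted. These values describe 8 libraries that share their size factors, and the 2 miRNAs may share reads. Of the other 240 miRNAs with a mean of at least 100 counts, those most like rno-miR-103 over the 8 rats were miR-152 (r = 0.966), miR-107, miR-148b-3p (0.945), miR-125b* (0.936) and miR-140* (0.934). All of these were called lower in the AA rats, with folds of 1.75 for miR-152, 1.72 for miR-148b-3p, 1.85 for miR-125b* and 1.66 for miR-140*. Those most like rno-miR-107 were miR-103, miR-3545-3p (r = 0.951), miR-125b* (0.950), miR-152 (0.926) and miR-139-5p (0.913), of which miR-139-5p was not called. Since miR-103 and miR-107 differ between the groups, a correlation over all 8 rats favors miRNAs that differ likewise. The calls of these miRNAs follow in part from that choice and are not a separate result.

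The miR-15 and miR-107 group joins the family with other miRNAs that carry the bases AGCAGC near the 5′ end and are known for restraining the cell cycle. Of the 9 other members fixed for this list, 6 were in the table. Their RefSeq sequences are shown because the shared bases sit 1 base further from the 5′ end than in miR-103, which gives another seed (capitals).
rno-miR-15b: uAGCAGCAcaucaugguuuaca
rno-miR-16: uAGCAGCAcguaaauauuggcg
rno-miR-195: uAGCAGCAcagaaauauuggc
rno-miR-497: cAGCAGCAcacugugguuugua
rno-miR-322: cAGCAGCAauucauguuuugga
rno-miR-503: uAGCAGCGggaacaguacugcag
These 6, miR-103 and miR-107 are the only names, 8 of 693 in the RefSeq table, with AGCAGC within bases 1 to 7. None of the 6 was called lower, where 3.23% of all miRNAs were, and 2 were called higher, where 5.81% were. Their median log2 fold change was 0.20, beside 0.05 over all miRNAs. miR-322 rose from 3279 ± 393 normalized counts to 5887 ± 1392 (SD, n = 4 each, log2 fold change 0.84, SE 0.21, edgeR adjusted p = 0.0227). miR-503, from the same cluster, rose from 1294 ± 131 to 3492 ± 2073 (log2 fold change 1.43, SE 0.37, edgeR adjusted p = 0.0245), with overlap of the groups. miR-103 had a higher count in every rat than the 6 others summed, which ranged from 50406 to 64800 normalized counts per control rat and from 63641 to 74353 per AA rat.

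**Figure D5:**
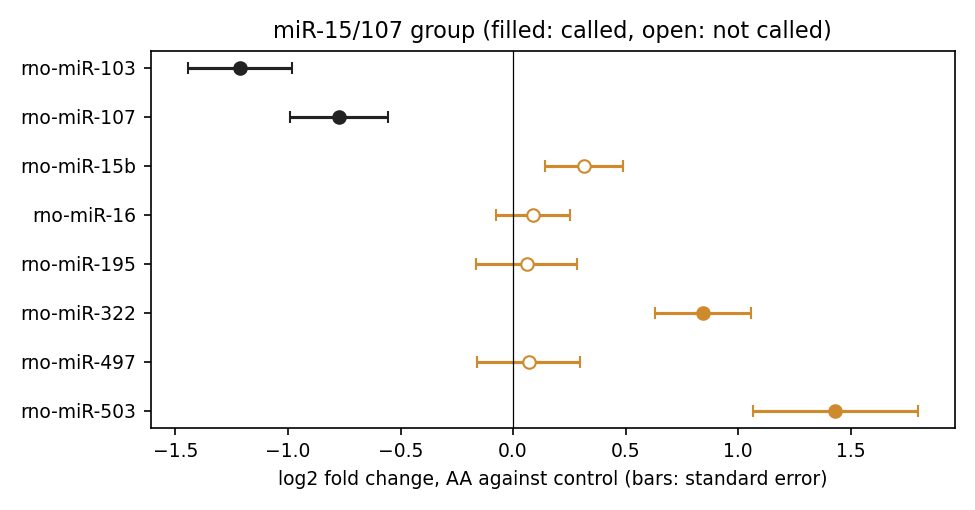
Log2 fold changes with standard errors (x axis, AA against control, edgeR) of miR-103 and miR-107 (black) and of the 6 other listed members of the miR-15 and miR-107 group (orange). miR-103 (-1.21) and miR-107 (-0.77) lie below 0, and miR-322 (0.84) and miR-503 (1.43) above it.

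In a list of 20 miRNAs known from glucose and lipid metabolism, all of which were in the table, 2 were called lower (3.23% of all miRNAs) and 1 higher (5.81% of all miRNAs, near the share in the list). The median log2 fold change of the list was -0.0079, beside 0.05 over all miRNAs. miR-375, a miRNA of endocrine and some epithelial cells, fell 5.69-fold (edgeR adjusted p = 0.000128). miR-378, which lies in the gene for the coactivator PGC-1β, fell 1.73-fold (edgeR adjusted p = 0.0173). miR-223, which is also a leukocyte marker, rose 1.94-fold (edgeR adjusted p = 0.0231). The other 17 were not called.

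Some markers of kidney cell types were also called. Of 7 tubule miRNAs in the list, 6 were found in the table by their listed names. Of these 6, 1 was called lower, miR-204 by 1.81-fold, where 3.23% of all miRNAs were, and their median log2 fold change was -0.58. Their summed level was 2217911 to 3191771 normalized counts in controls and 1587090 to 2303015 in the AA rats. Most of it was miR-30a, which was not called (log2 fold change -0.22). The highest sum was from control rat 4, which had 1124303 normalized counts of miR-192, against 328824 to 454738 in the other control rats. The summed level leaves out miR-10a, which the table lists as rno-miR-10a-5p. It had 1094299 to 1741941 normalized counts in controls and 836129 to 1654201 in the AA rats. Of 4 leukocyte miRNAs in the table (5 in the list), 2 were called higher, miR-142-3p by 2.67-fold and miR-223 by 1.94-fold, where 5.81% of all miRNAs were. The summed level of the 4 was 13715 to 17802 in control rats and 29485 to 56648 in the AA rats, and most of it was miR-142-3p. miR-142-5p (log2 fold change 0.26) and miR-150 (0.52) were not called. None of the 5 fibroblast and smooth muscle miRNAs was called (summed level 2559048 to 3549718 and 1973055 to 2676497). Most of this summed level was miR-143, with a log2 fold change of -0.41, whereas the median of the list was 0.43. The others were above 0, at 0.60 for miR-199a-3p, 0.73 for miR-199a-5p, 0.43 for miR-214 and 0.22 for miR-145. Nor were the 2 red cell miRNAs in the table (6910 to 11910 and 2172 to 8116) or the endothelial miR-126 (88431 to 139802 and 64017 to 114120) called. The hepatocyte miRNA miR-122 had 735, 60.4, 90.1 and 73.3 normalized counts in the control rats 1 to 4 and 10.1, 7519, 42.4 and 16.3 in the AA rats. Its high value in the AA group was thus from AA rat 2 alone. No marker in the table was at 0 in a whole group. The part of these shifts in the fall of miR-103 and miR-107 was not tested.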

How the data were processed

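Small RNA of whole kidney was sequenced in 1 library for each of 8 rats. CASAVA 1.7 is named in the submitters' processing notes. Adaptors were masked and contaminated reads were taken out by the authors, who then collapsed identical reads and matched them with miRanalyzer, at default settings, to the rat entries of miRBase release 16. The deposited values are whole read counts per mature miRNA, not normalized, and groups were taken from the sample titles.

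Size factors were medians of ratios. All 620 miRNAs were fitted in R 4.3.3 with edgeR 4.0.16 (glmQLFit and glmQLFTest, no covariate, no filter, all 8 rats), and standard errors are the log2 fold change over the root of F. Ratios within a library used counts plus 0.5 and exact permutation over 70 labelings. Correlations used log2 of normalized counts plus 1. Other steps ran in Python 3.11.15 with pandas 2.3.3, numpy 2.4.6 and scipy 1.17.1, and figures were drawn with matplotlib 3.10.9. The fits were tested on simulated data. Reads carried no molecular identifiers, so counting error is a lower limit of the technical error.

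The family, the lists and the markers were chosen with earlier results of these data known. Named were the family, the 5 miRNAs with a mean of at least 100 counts most like each member, list members that were called, and miRNAs on which a result turns. Alternatives were TMM, total counts with and without miR-21, DESeq2 1.42.0, a Wald test with the larger of the fitted and own dispersion as in the original DESeq package, robust moderation, limma-voom (limma 3.58.1), a mean of at least 10 counts, filterByExpr, other fold thresholds, a replicate block, both main arms summed, and rats left out. Those for miR-103-1* and miR-103-2*, both of their ratios and the ratio of arms over all hairpins were chosen after seeing the data.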

Additional observations from a re-analysis of the deposited data

How the results depend on the processing

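The fall of miR-103 was called under all 20 other settings, 1 of them as a sum with miR-107 (log2 fold change -1.40 to -0.79), and the summed counts of miR-103 and miR-107 moved by less than 1 SD under all 11 of theirs (-1.39 to -0.89). The log2 fold change of miR-107 was no longer called with TMM (-0.72), total counts (-0.51), total counts without miR-21 (-0.34), the original DESeq rule (-0.77), the replicate block (-0.75) and without both rats numbered 4 (-0.47). With a rat left out it ranged from -0.86 to -0.59 for miR-107 and from -0.039 to 0.27 for miR-107*. miR-103-2* was called with total counts (1.14), total counts without miR-21 (1.31) and filterByExpr (0.87), and was not in the other 16 settings. miR-103-1* was not called under any of 17, and both filters on low counts removed it.

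The numbers of miRNAs called higher (36) and lower (20) moved beyond 1.5 times with total counts (58 higher, 11 lower) and with total counts without miR-21 (97 higher, 10 lower), and the lower ones also with a fold threshold of 2 (12) and without control rat 1 (13). With a rat left out, 13 to 25 were called lower and 24 to 44 higher. With the replicate block 74 were called in all, and with DESeq2 75, in place of 56.

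For the ratios, the paired comparison by rat number (replicate block) gave the same differences of -0.45 for miR-103 to miR-107, -0.87 for miR-107 to miR-107* and -2.07 for miR-103 to its partner arms, where 4 pairs allow no exact p below 0.125. Without both rats numbered 4 they were -0.45, -0.74 and -1.81, where 3 rats against 3 allow none below 0.1. With a rat left out they ranged from -0.55 to -0.39, from -1.02 to -0.74 and from -2.24 to -1.92. The ratio of miR-103-2* to miR-103-1* changed sign with a pseudocount of 1 (0.057), without both rats numbered 4 (0.54) and with a rat left out (-0.27 to 0.44).

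The sample labels give each rat number its own length of treatment, which the study's methods do not. The correlation of the deviations of same-numbered rats from the group means over 241 miRNAs ranged from -0.0091 to 0.447 (mean 0.194, against -0.0639 for other pairs), with 3 of 4 over 0.1. These values do not settle whether the numbers pair the rats, and the block changed no call of a family member other than that of miR-107. The cause of the changes was not tested. At the counts of the less abundant arms, only large differences can be detected.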

Other observations

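After the group means were subtracted, the miRNAs most like rno-miR-103 over the 8 rats were miR-345-5p (r = 0.947), miR-421* (0.888), miR-107 (0.887), miR-379 (0.861) and miR-185 (0.837), and those most like rno-miR-107 were miR-345-5p (0.956), miR-103 (0.887), miR-3545-3p (0.830), miR-125b* (0.8287) and miR-339-3p (0.8287). miR-345-5p headed both lists and was not called between the groups (adjusted p = 0.527 from edgeR). rno-miR-103-2* was, without this subtraction, most like miR-34c (0.915), miR-34b* (0.910), miR-34a (0.903), miR-150 (0.884) and miR-130b (0.854), of which all but miR-150 were called higher in the AA rats. As rno-miR-103-2* was higher in every AA rat, this choice favors such miRNAs. After the subtraction, those most like it were miR-342-3p (0.894), miR-339-5p (0.869), let-7f-1* (0.809), miR-139-5p (0.777) and miR-24 (0.774), none of them called. rno-miR-103-2* had only 9 to 27 counts per library, and whether its correlations exceed counting error was not tested. For rno-miR-107* and rno-miR-103-1*, which had 1 to 32 counts per library, the leading names without the subtraction were miR-335 (0.739) and miR-98 (0.882). These correlations describe 8 libraries that share their size factors.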
